A study of Mus musculus with 7 samples.

Results

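Calmodulin genes, the calmodulin-like gene Calml3 and partners of calmodulin were followed in basal cells sorted from the mammary glands of mice on day 2 of lactation. The set has 9 members of the 56440 gene models in the deposited table: the calmodulin genes Calm2 and Calm3, Calml3, the calmodulin-dependent kinase genes Camk1, Camk2d, Camk2g and Camkk2, the calcineurin catalytic subunit gene Ppp3ca, and Rcan1. Rcan1 encodes a regulator of calcineurin and is not an enzyme. Members were found by their symbol, each in 1 row. They were chosen by a reading of earlier results of the same a3a6KO and Ctrl libraries, in which Calml3 was already among the genes with the lowest values in a3a6KO relative to Ctrl. Fold changes of the 9, with their SE and interval, are therefore a description, and counts of calls among them are printed only beside the share of all genes called. All 9 had values above 10 in every library and passed the filter on low values, as did 16889 models in all.

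The 3 a3a6KO libraries are from mice mutant for α3 and α6 integrin, and their titles mark them as Blg positive. The 4 Ctrl libraries are marked as Blg negative. From knowledge of the study, Blg refers to Cre recombinase under the beta-lactoglobulin promoter, active in luminal secretory cells, so that the basal cells measured here are neighbours of the cells meant to lose the integrins. Every mutant carried Blg and no control did, so Blg and the loss of the integrins cannot be told apart. The labels describe biological replicates and do not say whether a library came from 1 animal or from pooled animals.

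Whole reads recovered from the deposited values came to 9368418 to 18454773 per a3a6KO library and 14480615 to 21548279 per Ctrl library, with a3a6KO replicate 3 the lowest. Values below are normalised read counts, in which the counts of a library were scaled by its size factor. The targeted genes were present in all libraries. Itga3 had 494, 581 and 818 in a3a6KO, against 719, 542, 465 and 654 in Ctrl, and Itga6 had 9083, 8343 and 8574 in a3a6KO, against 10338, 10603, 7764 and 8678 in Ctrl. All 12 basal and myoepithelial markers were above 0 in every library, and their summed values were 959393 to 1076760 in a3a6KO and 858221 to 1163420 in Ctrl. The leading marker, smooth muscle actin Acta2, averaged 609207 in a3a6KO and 558175 in Ctrl. Of the 12 markers 5 had a log2 fold change above 0, and the oxytocin receptor gene Oxtr averaged 80558 in a3a6KO and 116511 in Ctrl (−0.57, SE 0.26, limma adjusted p = 0.785), with overlap of the groups. In these bulk samples, fewer cells of a type and less RNA per cell cannot be told apart.

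Calmodulin is a small protein that binds calcium through EF-hand loops and, once loaded, wraps around target enzymes and switches them on. In myoepithelial cells oxytocin raises cytosolic calcium, and calcium-loaded calmodulin activates myosin light chain kinase, which drives the contraction that ejects milk. Calmodulin also activates the CaM kinases and calcineurin, the phosphatase that sends NFAT transcription factors to the nucleus. In mammals the Calm genes encode the same protein, whereas Calml3 encodes a separate calmodulin-like protein of epithelial cells that in humans binds the motor protein myosin-10.

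The beginnings of the coding sequences are shown because reads can be assigned to Calm2, Calm3 or Calml3 only where their bases differ. Below are the first 96 bases from the start codon, 5′ to 3′, from GENCODE vM21 transcripts on GRCm38, all on the minus strand. Capitals in Calm3 and Calml3 mark bases that differ from Calm2. The first coding base is at position 87446795 of chromosome 17 in Calm2, at 16923843 of chromosome 7 in Calm3 and at 3804203 of chromosome 13 in Calml3.
Calm2: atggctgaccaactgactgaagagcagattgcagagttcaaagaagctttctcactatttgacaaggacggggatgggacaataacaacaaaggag
Calm3: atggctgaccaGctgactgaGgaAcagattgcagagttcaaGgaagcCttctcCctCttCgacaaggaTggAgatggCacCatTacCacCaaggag
Calml3: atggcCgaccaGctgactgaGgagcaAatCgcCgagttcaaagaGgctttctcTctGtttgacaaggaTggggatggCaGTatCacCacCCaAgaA

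Within these 96 bases Calm3 differed from Calm2 at 15 positions and Calml3 at 19. Over the full coding sequence of 450 bases, stop codon included, Calm3 and Calm2 were 82.7% identical, Calml3 and Calm2 75.6%, and Calml3 and Calm3 78.9%. The longest identical stretch between any pair was 17 bases. No source used here gives the read length or the treatment of reads that map to several places, and some sharing of reads among the genes was not tested.

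Calml3 had the log2 fold change farthest from 0 of the 9 genes. Calml3 (identifier GSMG0010272, mm10 chromosome 13, 3802893 to 3804318, minus strand) had 61.3, 54.1 and 78.3 normalised read counts in a3a6KO, against 260.1, 187, 149.7 and 132 in Ctrl. Every a3a6KO library was below every Ctrl library, with the highest a3a6KO value at 78.3 and the lowest Ctrl value at 132. The means were 64.6 ± 12.4 in a3a6KO (SD, n = 3) and 182 ± 56.7 in Ctrl (SD, n = 4). On the log2(value + 1) scale the difference, a3a6KO minus Ctrl, was −1.45 (SE 0.27, 95% interval −2.05 to −0.85), which is 36.5% of the Ctrl level. Of the 16889 genes tested, 0.645% had a lower log2 fold change than Calml3. The gene is short of reads compared with the other members, with 41 to 259 recovered reads per library.

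Calml3 was the 1 member of 9 whose groups did not overlap, where 3.51% of all genes tested did not overlap with a3a6KO lower and 4% with a3a6KO higher. In limma, 0 of 9 members passed an adjusted p of 0.05, beside 0% of all 16889 genes, and in edgeR, by quasi-likelihood on the recovered reads, 0 of 9, beside 0% of 17228. DESeq2 on recovered reads called 1 of 9, Calml3, beside 0.555% of the 13164 genes to which it gave an adjusted p. Since the members were chosen with this contrast known, these counts support nothing about them.

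**Figure D1:**
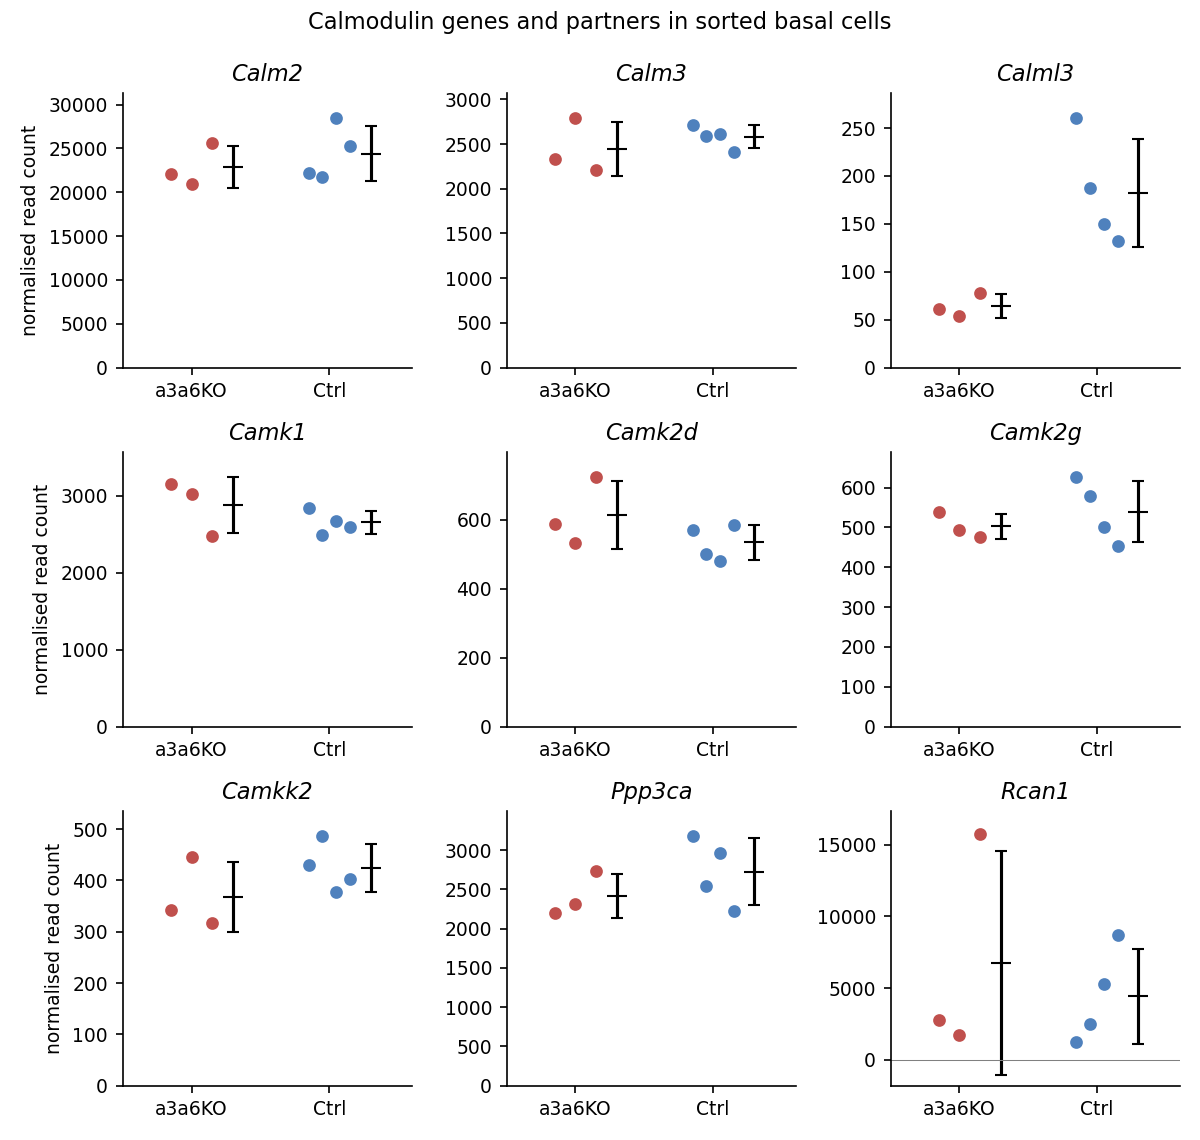
Normalised read count of each of the 9 genes (y axis, linear) in the 3 a3a6KO and 4 Ctrl libraries (points), with the mean and SD of each group as a black bar beside them. Calml3 lies at 54.1 to 78.3 in a3a6KO and at 132 to 260.1 in Ctrl, and Rcan1 spreads from 1263 to 15737 over the 7 libraries; in the other 7 panels the groups overlap.

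Calm2 and Calm3 stayed close between the groups. Calm2 (mm10 chromosome 17, 87433401 to 87446935) had 22113, 20910 and 25608 in a3a6KO, against 22213, 21722, 28415 and 25262 in Ctrl, and the groups overlapped. Its log2 fold change was −0.09 (SE 0.16, 95% interval −0.46 to 0.28). Calm3 (chromosome 7, 16915379 to 16924032) had 2327, 2786 and 2212 in a3a6KO, against 2718, 2593, 2608 and 2406 in Ctrl. Its log2 fold change was −0.09 (SE 0.12, 95% interval −0.37 to 0.20). Per kilobase of transcript, Calm2 supplied 93.4% to 95.7% of the summed level of Calm2 and Calm3 in a3a6KO libraries and 94.0% to 95.4% in Ctrl libraries. Set against this sum, Calml3 came to 0.223%, 0.205% and 0.248% in a3a6KO and to 0.933%, 0.688%, 0.426% and 0.423% in Ctrl. Calml3 transcript was thus under 1% of the level of the 2 genes in every library.

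The groups overlapped for all 4 kinase genes of the set. Camk1 (mm10 chromosome 6, 113334124 to 113343942), a kinase that calmodulin and an upstream kinase switch on together, had 3146, 3020 and 2471 in a3a6KO, against 2846, 2496, 2677 and 2590 in Ctrl (log2 fold change 0.11, SE 0.13). Its gene overlaps Ogg1 on the opposite strand, whose mean value was 4.91% of that of Camk1. Camk2d and Camk2g encode subunits of CaM kinase II, a multi-subunit kinase that can hold its active state by autophosphorylation. Camk2d (chromosome 3, 126596951 to 126846325) had 588, 531 and 722 in a3a6KO, against 569, 499, 481 and 586 in Ctrl (0.19, SE 0.15). Camk2g (chromosome 14, 20734874 to 20794088) had 539, 493 and 477 in a3a6KO, against 626, 579, 502 and 452 in Ctrl (−0.09, SE 0.15). All a3a6KO values of Camk2g lay within the range of Ctrl, whereas for Camk2d a3a6KO replicates 1 and 3 were above the highest Ctrl library. Per kilobase of transcript, Camk2g supplied 64.0% to 71.5% of the summed level of the 4 Camk2 genes in a3a6KO and 67.5% to 75.7% in Ctrl. The neuronal forms Camk2a and Camk2b did not pass the filter on low values.

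Camkk2 (chromosome 5, 122731173 to 122779412), the kinase that activates Camk1 and AMPK, had 343, 446 and 317 in a3a6KO, against 430, 486, 377 and 402 in Ctrl. The groups overlapped, and the log2 fold change was −0.21 (SE 0.17, 95% interval −0.59 to 0.16). Its paralog Camkk1, which is no member, had 180, 162 and 180 in a3a6KO, against 116, 91.3, 95.5 and 129 in Ctrl. Each a3a6KO library was above each Ctrl library for Camkk1, at 0.70 on the log2 scale (SE 0.19, limma adjusted p = 0.551), so it did not pass. Per kilobase of transcript, Camkk2 made up 57.3%, 65.9% and 55.4% of the summed Camkk1 and Camkk2 level in a3a6KO, against 72.2%, 78.9%, 73.6% and 68.8% in Ctrl. This share did not overlap between the groups, and it was looked at with the values of both genes already known. Per kilobase of all annotated exons, Camkk2 and Camkk1 averaged 33.7 and 46.6 in a3a6KO, and 38.8 and 29.0 in Ctrl. Which of these genes was higher in a3a6KO thus rests on the length used.

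Ppp3ca (mm10 chromosome 3, 136670066 to 136937726), the catalytic subunit of calcineurin that binds calmodulin, had 2199, 2311 and 2738 in a3a6KO, against 3174, 2540, 2966 and 2223 in Ctrl. The groups overlapped, and the log2 fold change was −0.17 (SE 0.16, 95% interval −0.52 to 0.19). Per kilobase of transcript, Ppp3ca supplied 82.7% to 88.2% of the summed level of the catalytic genes Ppp3ca, Ppp3cb and Ppp3cc in a3a6KO and 82.6% to 88.9% in Ctrl. Per kilobase of all annotated exons, these genes averaged 242, 45.8 and 48.6 in a3a6KO, and 273, 52.1 and 59.8 in Ctrl. Ppp3ca was highest by either length, but its share depends on the length used. The calcineurin B gene Ppp3r1 shares a row with a second gene, Wdr92, and was not analysed here.

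Rcan1 varied more among libraries of the same group than between the groups. Its protein binds calcineurin and restrains it, and the gene is itself induced by calcineurin and NFAT, which makes it a feedback inhibitor. Rcan1 (mm10 chromosome 16, 92391951 to 92470868, minus strand) had 2774, 1739 and 15737 in a3a6KO, against 1263, 2492, 5274 and 8711 in Ctrl. The highest library, a3a6KO replicate 3, was 12.5 times the lowest, Ctrl replicate 1, and the groups overlapped. Means were 6750 ± 7800 in a3a6KO (SD, n = 3) and 4435 ± 3308 in Ctrl (SD, n = 4). The log2 fold change was 0.29 (SE 0.82, 95% interval −1.56 to 2.14), and its sign turned to −0.66 without a3a6KO replicate 3, to −0.20 without Ctrl replicate 1 and to −0.13 with library weights. It was 0.60 in edgeR and 0.59 in DESeq2, both on recovered reads. The SD of Rcan1 within groups was 1.42 on the log2 scale, above that of 97.3% of the 16889 genes tested. The other members ranged from 0.12 (Calm3, above 6.49% of genes) to 0.37 (Calml3, above 55.4%). a3a6KO replicate 3 was also the library with the fewest recovered reads, and the part of depth in the spread was not tested.

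RefSeq lists 2 start sites for Rcan1, and the internal one is known as the start that calcineurin and NFAT induce. The deposited value covers the whole gene and does not separate them. The window of the internal start, which reaches from 250 bases before to 50 bases after it, is shown because the widest spread among the members belongs to this gene. It lies at chr16:92400029-92400328 on the minus strand of GRCm38.p6, as given by RefSeq, and is printed 5′ to 3′. Capitals mark the NFAT core GGAAA on either strand.
Rcan1 internal start: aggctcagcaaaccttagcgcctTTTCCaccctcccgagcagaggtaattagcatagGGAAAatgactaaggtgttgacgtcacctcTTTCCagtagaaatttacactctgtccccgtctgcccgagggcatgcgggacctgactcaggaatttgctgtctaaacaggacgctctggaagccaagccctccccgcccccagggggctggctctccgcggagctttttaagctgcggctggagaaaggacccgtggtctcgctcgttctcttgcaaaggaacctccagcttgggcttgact

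The core GGAAA occurred 3 times in this window, beginning at −227, −193 and −163 from the start site, and 0 times in the window of the upstream start (chr16:92466120-92466419). Searched on both strands, at least 3 cores were found in 9.42% of 32851 RefSeq promoter windows of the same length and at least 1 in 61.3%. The full cyclic AMP response element TGACGTCA, which does not overlap a core, occurred once in the internal window and in 1.79% of all windows. Promoter windows were found for 5 of the 9 members. Those of Calm3 and Camk2d held 1 core each and those of Camk1 and Camkk2 held 0. The matches are a description of the letters and no measure of binding.

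Genes whose values followed Rcan1 across the libraries were looked for after its spread had been seen. The measure was the root mean square difference between log2(value + 1) profiles over the 7 libraries, each centred on its own mean. Compared were 10365 genes with a symbol and a mean of at least 50, with predicted, RIKEN and expressed-sequence genes left out. The closest was Il1b, which encodes the inflammatory cytokine interleukin 1 beta, at 0.18, where the median gene was at 1.23. Il1b had 51.4, 44.8 and 326 in a3a6KO, against 32.1, 63.0, 134 and 208 in Ctrl. The next were Bcl3 at 0.29, Map2k3os at 0.30, Smim3 at 0.31 and Tnfrsf12a, the receptor of the cytokine TWEAK, at 0.32. Tnfrsf12a had 2655, 1853 and 12942 in a3a6KO, against 1061, 2445, 3124 and 5164 in Ctrl. For each of the 5 genes a3a6KO replicate 3 was the highest library and Ctrl replicate 4 the next. Since they were chosen for likeness to Rcan1, this shared order adds nothing to the result.

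Among the NFAT factors, Nfatc1 had 341, 282 and 1473 in a3a6KO, against 331, 331, 361 and 625 in Ctrl, and Nfatc2 had 38.1, 36.9 and 498 in a3a6KO, against 85.3, 80.0, 67.0 and 179 in Ctrl. Both were picked out after their values had been seen. The other NFAT factors of the list, Nfatc3 and Nfatc4, did not follow Rcan1. Nfatc3 had 283, 266 and 265 in a3a6KO, against 286, 329, 221 and 266 in Ctrl. Nfatc4 had 76.2, 64.6 and 56.9 in a3a6KO, against 109, 61.4, 67.0 and 72.6 in Ctrl. For both, a3a6KO replicate 3 was the lowest of the a3a6KO libraries. Itpkc, a calmodulin-regulated kinase that phosphorylates the second messenger IP3, had 340, 253 and 1747 in a3a6KO, against 507, 402, 424 and 765 in Ctrl. For Nfatc1, Nfatc2 and Itpkc a3a6KO replicate 3 was highest and Ctrl replicate 4 next, as for Rcan1. Their log2 fold changes between groups were 0.39 (SE 0.52), −0.09 (SE 0.84) and 0.07 (SE 0.58). The summed immune cell markers were 377, 491 and 858 in a3a6KO, against 211, 299, 899.7 and 725 in Ctrl, so they too were high in a3a6KO replicate 3 and Ctrl replicate 4, but highest in Ctrl replicate 3. None of the 8 immune markers was at 0 in all libraries, and 4 were above 0 in every library. Their part in the Rcan1 values was not tested.

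**Figure D2:**
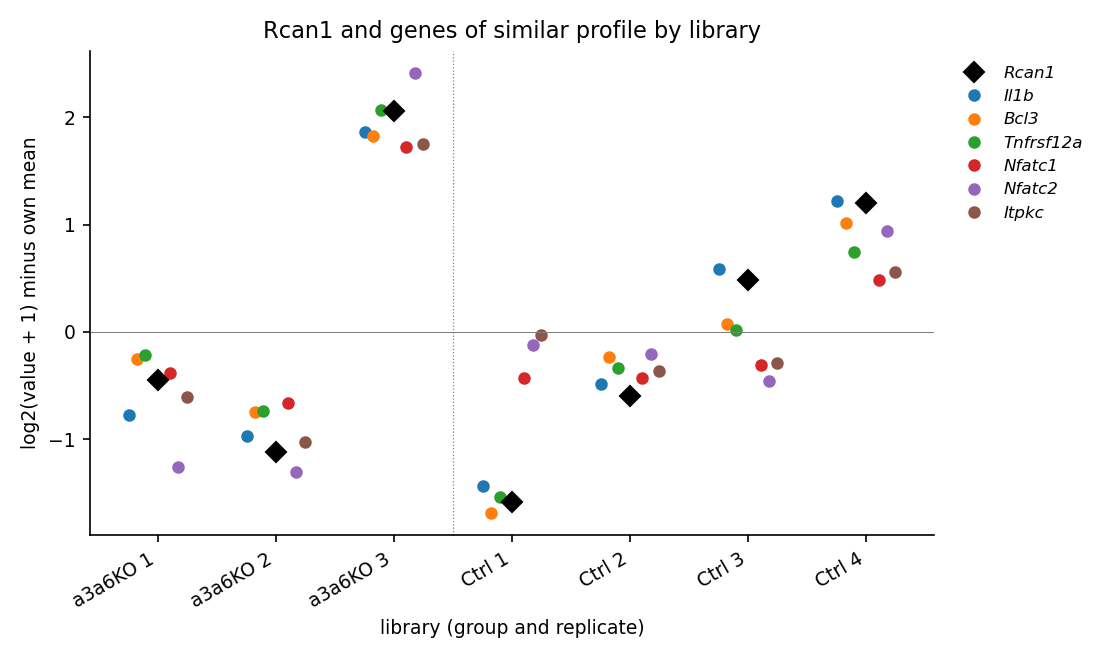
log2(value + 1) of Rcan1 (black diamonds) and of Il1b, Bcl3, Tnfrsf12a, Nfatc1, Nfatc2 and Itpkc (coloured points), each minus its own mean over the 7 libraries (y axis), by library (x axis, a3a6KO left of the dotted line and Ctrl right of it). All 7 genes are highest in a3a6KO replicate 3, where Rcan1 reached 15737 normalised read counts, and next highest in Ctrl replicate 4. Il1b, Bcl3 and Tnfrsf12a were chosen for likeness to Rcan1, and Nfatc1 and Nfatc2 after their values were seen. Nfatc3 and Nfatc4, which did not follow Rcan1, are not drawn.

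By the same measure, the genes closest to Calml3 over the 7 libraries were Hddc3 at 0.19, Psd2 at 0.26, Etv5 at 0.29, Fam65b at 0.34 and Enkur at 0.34, where the median gene was at 0.82. Since Calml3 separates the groups, its closest genes do so too, which adds nothing to the result. Hddc3 had 54.7, 60.7 and 92.5 in a3a6KO, against 277, 170, 151 and 104 in Ctrl. Etv5, an ETS transcription factor, had 341, 299 and 276 in a3a6KO, against 1045, 851, 488 and 461 in Ctrl. Enkur encodes an adaptor that in mouse sperm binds calmodulin and TRPC channels, and it had 15.7, 18.5 and 37.4 in a3a6KO, against 113, 70.3, 66.1 and 78.7 in Ctrl. Within Ctrl, replicate 1 was the highest library for all 5 genes and for Calml3. In the 4 Ctrl libraries the order of Calml3 was the reverse of that of Rcan1, with Ctrl replicate 1 highest for Calml3 and lowest for Rcan1, whereas in a3a6KO the highest and lowest libraries were the same for both genes, replicates 3 and 2.

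On chromosome 13 Calml3 lies beside Calm4 and Calm5, which encode further calmodulin-like proteins of mouse skin. Calm4 was at 18.2, 0 and 0 in a3a6KO and at 2.01, 0, 0 and 0 in Ctrl, and Calm5 was at 0 in all 7 libraries. Of the nearest genes that passed the filter, Asb13 and Fam208b lie on one side and Net1 and Akr1c14 on the other. Net1, an activator of the GTPase RhoA whose nearest end, its 3′ end, lies 77700 bases from Calml3, had 1364, 1034 and 1454 in a3a6KO, against 3149, 2168.5, 1642 and 1183 in Ctrl. The groups overlapped for Net1, at −0.59 on the log2 scale (SE 0.30, limma adjusted p = 0.789). Asb13 had −0.11 (SE 0.16), Fam208b −0.27 (SE 0.33) and Akr1c14 0.25 (SE 0.82), and none passed.

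**Figure D3:**
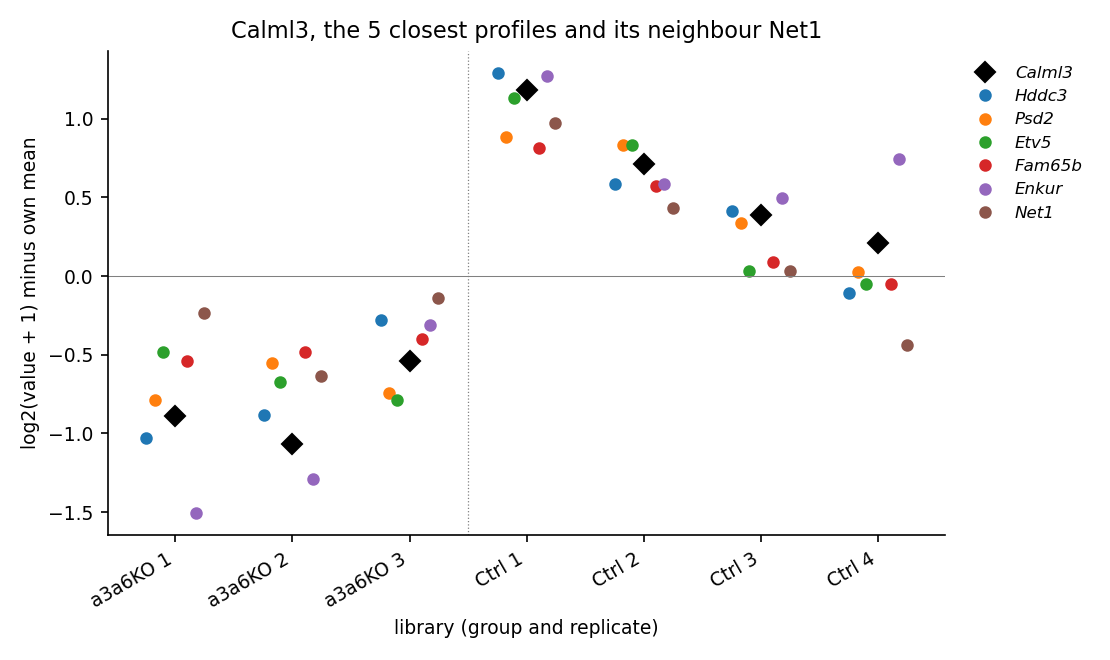
log2(value + 1) of Calml3 (black diamonds), of its 5 closest genes by profile and of its neighbour Net1 (coloured points), each minus its own mean over the 7 libraries (y axis), by library (x axis, a3a6KO left of the dotted line and Ctrl right of it). Calml3 lies at 54.1 to 78.3 normalised read counts in a3a6KO and at 132 to 260.1 in Ctrl, with Ctrl replicate 1 highest, while Net1 overlaps between the groups.

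Sums of endothelial and red blood cell genes, like Calml3, did not overlap between the groups. All 11 endothelial markers had a log2 fold change above 0, and their sums were 9153 to 12808.5 in a3a6KO and 4355 to 7114 in Ctrl. Red blood cell genes summed to 612 to 787 in a3a6KO and 25.1 to 359 in Ctrl. All 8 milk protein genes had a log2 fold change below 0, and their sums overlapped, at 127082 to 521479 in a3a6KO and 178476 to 1216120 in Ctrl. The part of these cells in the Calml3 difference was not tested. Scaled to the summed basal markers in place of the deposited size factors, the log2 fold change of Calml3 was −1.48. Differentiated epidermal keratinocyte markers, which would mark skin in the sort, summed to 125 to 180 in a3a6KO and 105 to 136 in Ctrl. Of these 8 genes Flg was at 0 throughout, and 4 passed the filter, 3 of them with a log2 fold change above 0. The other, Sbsn, had 24.9, 36.9 and 28.5 in a3a6KO, against 42.2, 38.0, 51.4 and 53.7 in Ctrl. Its groups did not overlap, with a3a6KO lower as for Calml3 (−0.61, SE 0.27, limma adjusted p = 0.785). The remaining lists overlapped between the groups. Sums in a3a6KO and Ctrl were 18443 to 26314 and 18997 to 33581.5 for luminal markers, 3714 to 5487 and 3021 to 5089 for pericyte and vascular smooth muscle markers, and 20781 to 31271 and 16493.5 to 27329 for fibroblast markers. They were 4996 to 18627 and 2297 to 15629 for adipocyte markers, 118 to 421 and 88.1 to 272 for skeletal muscle markers, and 1201 to 1820 and 1231 to 2628 for Schwann cell markers.

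Levels were set between genes per kilobase of the transcript with the longest coding sequence in GENCODE vM21, in Ctrl libraries. Calm2 was highest, at 20252 ± 2572 normalised read counts per kilobase (SD, n = 4). Rcan1 followed at 1908 ± 1423, Camk1 at 1773 ± 99.4, Ppp3ca at 1242 ± 194 and Calm3 at 1127 ± 56.6, and the spread of Rcan1 covered the other 3. Camk2g was at 279 ± 40.0, clear of the genes above and below it. Calml3 at 128 ± 39.9, Camk2d at 98.9 ± 9.51 and Camkk2 at 87.2 ± 9.55 had overlapping ranges. With all annotated exons as the length Calm2 and Rcan1 remained highest and second, while Calm3 came before Camk1 and Ppp3ca and Calml3 before Camk2g, so the order of the middle genes rests on the transcript chosen.

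No gene of the wider calmodulin pathway passed in limma. The 5 lists, which leave out the 9 members, held 68 genes, of which 66 had a row of their own and 48 passed the filter. Of these 48, 20 had a log2 fold change above 0 and 28 below, with a median of −0.06, beside −0.0040 over all genes tested. At an unadjusted p under 0.05 there were 3 genes, 1 higher and 2 lower, which is 6.25% beside 1068 of all genes tested, or 6.32%. edgeR and DESeq2 called 0 of them as well. Groups did not overlap with a3a6KO higher in 2 of the 48 genes, beside 676 of all 16889 genes tested, or 4%. With a3a6KO lower they did not overlap in 4 of the 48, beside 593 of 16889, or 3.51%. The share of the 48 was thus near that of all genes for a3a6KO higher and above it for a3a6KO lower, and the difference was not tested. For the 9 members themselves 3 fold changes were above 0 and 6 below, with a median of −0.09.

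Among the other kinases, 6 of 16 tested genes had a fold change above 0 and 10 below. Mylk, the myosin light chain kinase of contraction, was the most abundant by count, with 25437, 27514 and 22199 in a3a6KO, against 29791, 26092, 23610 and 25768 in Ctrl (log2 fold change −0.07, SE 0.16). Pnck, a CaM kinase I family member, had 3272, 3283 and 2105 in a3a6KO, against 4286, 3539, 2350 and 2935 in Ctrl (−0.18, SE 0.24). Per kilobase of transcript, Camk1 made up 48.5% to 54.4% of the 4 CaM kinase I genes in a3a6KO and 40.5% to 53.8% in Ctrl, and most of the remainder was Pnck. With all annotated exons as the length, Camk1 and Pnck averaged 482 and 1465 per kilobase in a3a6KO, and 444 and 1663 in Ctrl. The near-even split thus rests on the transcript chosen. Phkb, a subunit of phosphorylase kinase, which carries calmodulin as a subunit, had 1054, 1001 and 1076 in a3a6KO, against 1412, 1362, 1176 and 1216 in Ctrl (−0.30, SE 0.12, limma adjusted p = 0.739). Eef2k had −0.23 (SE 0.17) and Phka1 −0.34 (SE 0.20).

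In the calcineurin list 5 of 12 tested genes had a fold change above 0 and 7 below. Rcan3, a paralog of Rcan1, had 35.6, 25.1 and 33.8 in a3a6KO, against 57.2, 55.7, 45.0 and 53.0 in Ctrl (−0.74, SE 0.25, limma adjusted p = 0.691). The catalytic subunit gene Ppp3cc had 159, 137 and 139 in a3a6KO, against 169, 188, 182 and 175 in Ctrl (−0.30, SE 0.15, limma adjusted p = 0.789). Both had no overlap of the groups, with a3a6KO lower, and neither passed. Fkbp1a, the immunophilin through which the drug FK506 inhibits calcineurin, had 0.10 (SE 0.14), Chp1 0.01 (SE 0.14) and Cabin1 −0.21 (SE 0.24).

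Of 7 other calmodulin-regulated enzymes tested, 4 had a fold change above 0 and 3 below. Nos3, the endothelial nitric oxide synthase, had 125, 198 and 247 in a3a6KO, against 103, 124, 125 and 145 in Ctrl (0.56, SE 0.25, limma adjusted p = 0.785), and the part of the endothelial cells described above in these values was not tested. Itpkb, an IP3 kinase, had 176, 189 and 230 in a3a6KO, against 475, 381, 184 and 278 in Ctrl (−0.65, SE 0.30, limma adjusted p = 0.785). Nos2 had 0.64 (SE 0.34) and the adenylyl cyclase Adcy3 −0.06 (SE 0.19). Of 13 calmodulin-binding structural and buffer proteins tested, 5 had a fold change above 0 and 8 below. Cald1, the actin-binding caldesmon that calmodulin releases from the filament, averaged 13512 ± 1026 in a3a6KO (SD, n = 3) and 13545 ± 1145 in Ctrl (SD, n = 4). Marcksl1 had 0.03 (SE 0.19), Add1 −0.20 (SE 0.14), Add3 0.22 (SE 0.17) and Camta2 −0.16 (SE 0.12).

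**Figure D4:**
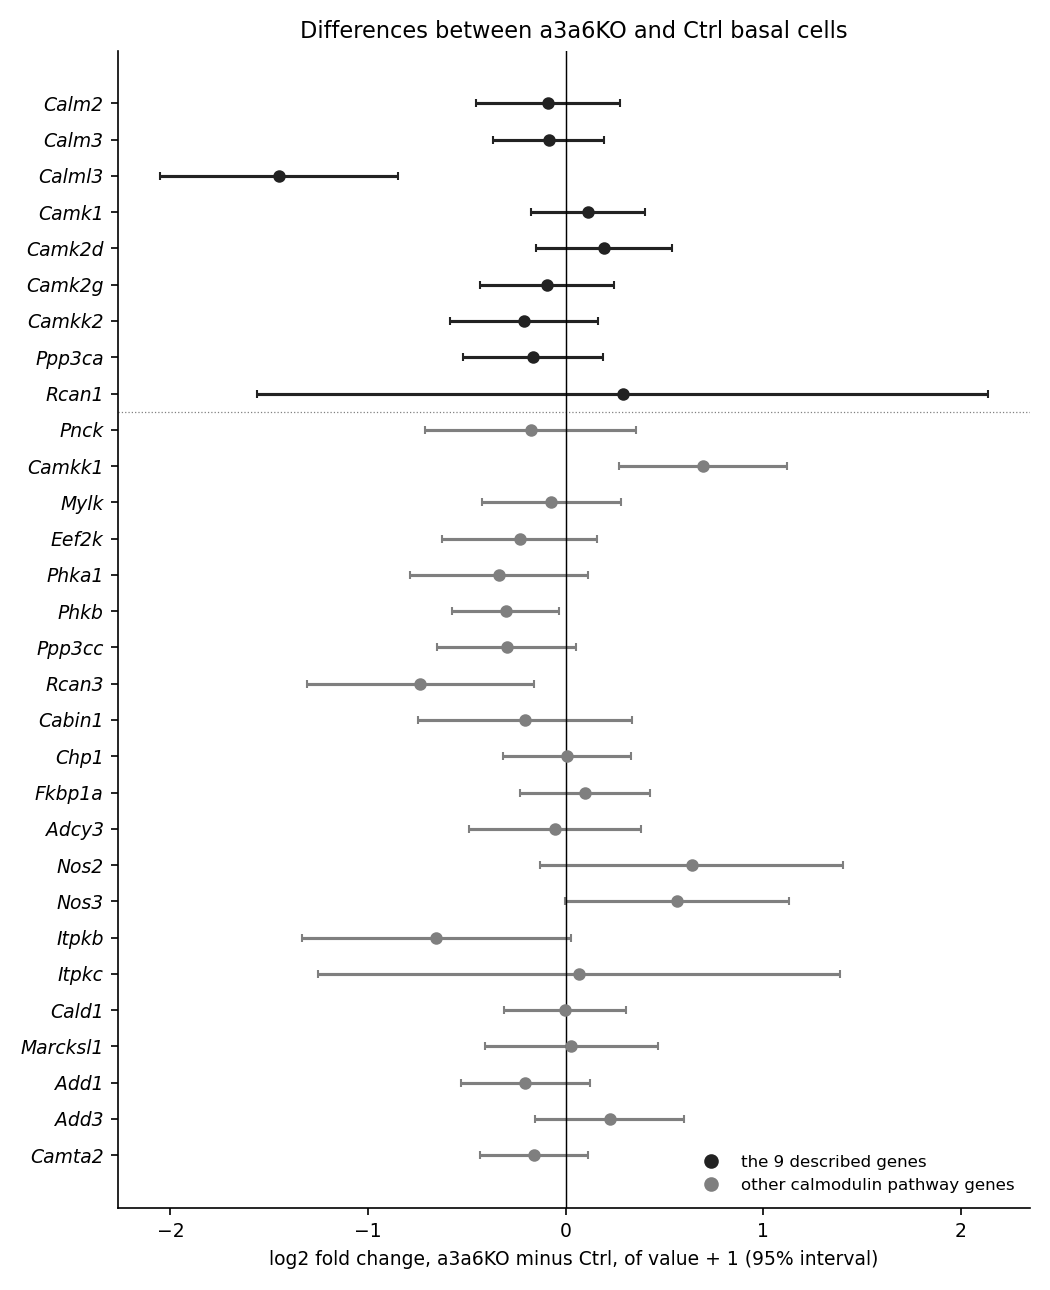
log2 fold change of value + 1, a3a6KO minus Ctrl (x axis), with its 95% interval from limma, for the 9 genes (black, above the dotted line) and for 21 other genes of the calmodulin pathway (grey). Calml3 lies at −1.45, Rcan1 has the widest interval, from −1.56 to 2.14, and no gene passed in limma at an adjusted p of 0.05.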

How the data were processed

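Basal cells sorted by flow cytometry from fresh mammary tissue were sequenced after SMARTer v4 library preparation, per the labels' protocols. The deposited table holds 1 signal value per gene model and library, made by the authors with DESeq2 as counts divided by a size factor, per the file title. STAR 2.4.0, FastQC, Picard and SAMtools are named with no role in the submitters' processing notes, with build mm10. Which read counter was used, and whether it read strand, is not stated there, and values are not corrected for length.

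Values were whole multiples of 1 step per library within 0.01 of a read for 100% of values up to 2000 reads, which gave recovered reads. In Ctrl replicate 1 the step was close to 1, where steps can be mistaken for rounding, but 1.26% of its values between 20 and 2000 reads were whole within 0.01 before division by the step. limma 3.58.1 in R 4.3.3 was fitted with an empirical Bayes trend to log2(value + 1) of the genes that reached 10 in 3 or more libraries. Two-sided p-values were adjusted by Benjamini-Hochberg over all genes, with a threshold of 0.05. The log2(value + 1) scale understates changes of low genes. Alternatives included edgeR 4.0.16 and DESeq2 1.42.0, run on the recovered reads, and the scripts were tested on simulated data. Lengths and coding sequences came from GENCODE vM21.

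Replicates were numbered in accession order and only name libraries. Nothing states separate animals beyond the word biological. The p-values set the group difference against the variation among these libraries, and whether that is variation among animals is not known. The members and lists were chosen with earlier results of these data known. Named besides the members were up to 3 genes of each pathway list by level and up to 3 by smallest p, the 5 genes closest to Calml3, its 2 tested neighbours on either side, and leading or absent cell type markers. Only some of the leading cell type markers are named. Also named were the targeted genes, Ogg1 for its overlap with Camk1, and Camk2a, Camk2b, Ppp3cb, Nfatc3 and Nfatc4 as relatives of other named genes. Further genes outside this rule are said to have been picked after their values were seen. The rows shared by Ppp3r1 with Wdr92 and by Pcp4 with Igsf5 were left out, and 1 result of the lists is not reported here.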

Additional observations from a re-analysis of the deposited data

Results flagged for a closer look

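In 3 of 70 quantities checked, 1 of the 4 Ctrl libraries stood apart from the others by a gap test, which chance passes in about 1 of 20 groups. Of the 3, Nfatc1 and Nfatc2 had been added to the check after their values were seen. The count therefore cannot be set against that rate. Nfatc1 had 625 in its highest Ctrl library, replicate 4, against 331, 331 and 361 in the others. Nfatc2 had 179 in the same library, against 67.0, 80.0 and 85.3. Rcan1 was also highest of the Ctrl libraries in replicate 4, at 8711. Calm4 had 2.01 in Ctrl replicate 1, against 0 in the other 3, which is a value of 2 recovered reads. Groups of 3 were not checked, so a3a6KO replicate 3, with 15737 for Rcan1, is outside this check.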

How the results depend on the processing

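No gene passed in limma under any of its pseudocounts, filters, scalings, weights or leave-outs, nor in edgeR, whereas DESeq2 called 73 genes. Of the pathway genes outside the members 0 were called under every alternative in which they were counted. They were not counted in the DESeq2 runs without 1 library. The log2 fold change of Calml3 was −1.60 to −1.27 when 1 library was left out in limma, −1.51 in edgeR, −1.51 in DESeq2 and −1.66 to −1.30 in DESeq2 without 1 library, where 32, 27, 47 and 134 genes were called without Ctrl replicates 1, 2, 3 and 4 and 49 to 83 without 1 a3a6KO replicate. No member other than Rcan1 changed sign in its 19 alternatives, nor Calml3 in its 26, and Rcan1 did in 3. Leaving out 1 library gave −0.66 to 0.93 for Rcan1, with 0.93 without a3a6KO replicate 2. Scaling to basal markers and leaving out libraries in DESeq2 were added after the data were seen. No paired analysis was possible because the labels give no replicate numbers that groups share. Depth limits Calml3 most among the members, with 41 to 259 reads.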

Other observations

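2 further genes of the calmodulin pathway varied widely among the libraries and were picked out after their values had been seen. Marcks, an actin-binding membrane protein that calmodulin sequesters, had 6304, 3726 and 2226 normalised read counts in a3a6KO, against 2087, 4629, 8212 and 7361 in Ctrl. Dapk2, a calmodulin-dependent death-associated kinase, had 218, 141 and 128 in a3a6KO, against 54.2, 46.9, 152 and 179 in Ctrl. The groups overlapped for both, and their log2 fold changes were −0.39 (SE 0.49) for Marcks and 0.78 (SE 0.49) for Dapk2, with limma adjusted p = 0.900 and 0.811. Myo10, also picked out after its values had been seen, encodes the motor protein that the human counterpart of Calml3 binds, and had 659, 819 and 1155 in a3a6KO, against 1031, 985, 589 and 967 in Ctrl, with overlap of the groups.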
